A study of Mus musculus with 5 samples.

Results

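The hairpin miR-31 gives 2 mature strands, miR-31-5p and miR-31-3p, listed as mmu-miR-31-5p and mmu-miR-31-3p. Both were taken by name from a table of 1966 mature mouse miRNAs, and they are 2 of its rows. miR-31-5p had counts in all 5 libraries, whereas miR-31-3p had 0 counts in each of them. Of the 517 miRNAs with any count, 327 passed the filter on low counts, and miR-31-5p was among them.

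The libraries held small RNA of extracellular vesicles (EVs), the membrane vesicles that cells release, from mesenchymal stem cells of C57BL/6-GFP transgenic mice. All came from cells kept for 48 h in serum-reduced medium, with vesicles pelleted at 100000 g for 110 min. The not freeze-dried group (n = 2, titled as unmodified EVs) was compared with the freeze-dried group (n = 3), whose vesicles were frozen at -80 °C in buffer with 25 mM trehalose, dried overnight and rehydrated for 1 h. The question was whether freeze-drying alters the miRNA content. For the not freeze-dried vesicles the labels allow several storage buffers, with or without trehalose. Values of the not freeze-dried libraries are called values before drying, and those of the freeze-dried libraries values after it. These are names only, since no label says that the same vesicles were sampled at both points. No label ties a replicate to a culture of its own, so every p-value rests on a spread that may be technical only. Total counts ran from 131507 to 2914305 per library. Not freeze-dried replicate 1 and freeze-dried replicates 1 and 2 had 500000 counts or more and are called deep here. Not freeze-dried replicate 2 and freeze-dried replicate 3 had fewer and are called shallow.

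A miRNA hairpin is cut into a short duplex, of which usually one strand, the guide, is kept in Argonaute and the other, the passenger, is degraded. The guide finds messenger RNAs mainly by its seed, bases 2 to 8. In stromal cells miR-31-5p is known as a restraint on bone formation, since it represses Sp7 (Osterix), a transcription factor of osteoblasts. It has also been described in vesicles of senescent endothelial cells, which act on the osteogenic differentiation of mesenchymal stem cells.

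The mature strands are printed to show the seed that each would use, with the seed in capitals (RefSeq, GRCm38.p6, 5′ to 3′).
miR-31-5p: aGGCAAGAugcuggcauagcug
miR-31-3p: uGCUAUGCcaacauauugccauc
The seeds differ, and 0 other mature miRNAs of the RefSeq table, out of 1737, had either seed. miR-31 therefore has no seed partner among these sequences. The count table lists 1966 miRNAs, so some of its miRNAs were not searched. By edit distance the nearest other mature sequence was miR-449c-5p for the 5p strand, at 6 edits, and miR-3963 for the 3p strand, at 8 edits. Neither strand's full sequence occurred in another hairpin of the table. miR-31-5p is 22 bases long with 12 G or C, and miR-31-3p 23 bases with 10.

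The hairpin shows how both strands lie in their precursor, with the mature strands in capitals. The 5p strand takes bases 28 to 49 and the 3p strand bases 64 to 86.
miR-31 hairpin: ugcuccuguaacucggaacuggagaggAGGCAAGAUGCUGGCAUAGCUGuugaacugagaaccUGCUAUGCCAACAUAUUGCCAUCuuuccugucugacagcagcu
The hairpin of 106 bases lies on the minus strand at chr4:88910557-88910662 (GRCm38). In GENCODE M21 it falls in an exon (88909855 to 88910710) of the lincRNA AL805899.1. That gene runs on the same strand from 88909855 to 88938521. The nearest of the protein-coding genes looked up was Ifne, an interferon gene, 30.4 kb away. Cdkn2a, which encodes cell cycle inhibitors that rise in senescent cells, lies 364 kb away on the same chromosome. miR-491, the other miRNA looked up on this chromosome, lies 788 kb away. Its 5p strand had 59 counts in freeze-dried replicate 1 and 0 in the other libraries, and its 3p strand had 7 counts in not freeze-dried replicate 2 and 0 elsewhere. Neither strand of miR-491 passed the filter.

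miR-31-5p was a mid-to-high abundance miRNA of these vesicles. Before drying, replicates 1 and 2 gave it 5978 and 517 counts. Freeze-dried replicates 1, 2 and 3 gave it 11644, 11054 and 585. Among all rows it ranked 36 and 46 before drying and 43, 42 and 46 after it. Between 315 and 361 miRNAs had a count in a library, so it stood in the upper part of each list.

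On the scale of TMM-normalised CPM, counts scaled to a common library size, the level of miR-31-5p was 5867 and 3963 in not freeze-dried replicates 1 and 2. In freeze-dried replicates 1, 2 and 3 it was 4237, 4294 and 3331 CPM. Not freeze-dried replicate 1 was the highest library and freeze-dried replicate 3 the lowest. The groups overlapped, because not freeze-dried replicate 2 lay below 2 freeze-dried libraries. The groups' values did not overlap for 17.4% of all tested miRNAs, and miR-31-5p was not one of these.

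The mean level was 4915 ± 1346 CPM in not freeze-dried vesicles (SD, n = 2) and 3954 ± 540 CPM in freeze-dried vesicles (SD, n = 3). The log2 fold change of freeze-dried over not freeze-dried was -0.31 (SE 0.31, 95% interval -1.01 to 0.38), or a fold of 0.804 (interval 0.496 to 1.31). In edgeR's quasi-likelihood test the unadjusted p was 0.34 and the adjusted p = 0.98, so the difference was within the spread between libraries. Of all 327 tested miRNAs, 0% were called higher and 0% lower, while 9 (2.75%) had an unadjusted p under 0.05 in edgeR, 16 in DESeq2 and 15 in limma-voom. Such levels cannot show a loss shared by all miRNAs, and fewer vesicles with miR-31-5p cannot be told apart from fewer copies in each vesicle. The sign rests on 1 library: without not freeze-dried replicate 1 the log2 fold change was 0.063 (interval -0.87 to 0.99), and without not freeze-dried replicate 2 it was -0.61 (interval -1.53 to 0.32).

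**Figure D1:**
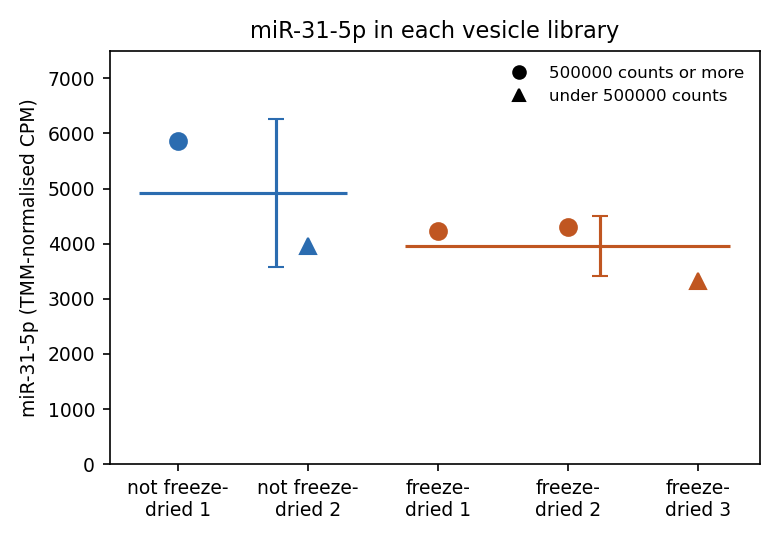
Level of miR-31-5p (y axis, TMM-normalised CPM) in each of the 5 libraries (x axis). Circles are libraries with 500000 counts or more and triangles those with fewer, horizontal lines are group means and vertical bars ± 1 SD. Not freeze-dried replicate 1, at 5867 CPM, stands above the others, which lie between 3331 and 4294 CPM.

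The deep libraries had the higher levels of miR-31-5p, by a narrow margin. The 3 deep libraries lay between 4237 and 5867 CPM, and the 2 shallow ones at 3331 and 3963 CPM. The margin is that of freeze-dried replicate 1 over not freeze-dried replicate 2, a ratio of 1.07. As shares of all counts, the binomial intervals of these 2 libraries overlap, so the separation by depth is not resolved. How many of all tested miRNAs separate by depth was not counted. Within the deep libraries the not freeze-dried one had 5867 CPM and the freeze-dried ones a mean of 4266, a ratio of 0.727. Within the shallow libraries the values were 3963 and 3331 CPM, a ratio of 0.84. The freeze-dried value was thus the lower one in both classes, each with 1 not freeze-dried library and therefore no test. With depth class as a term in edgeR the log2 fold change was -0.37 (SE 0.23, interval -0.90 to 0.16, adjusted p = 0.94).

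As a share of all miRNA counts, miR-31 took 0.655% of not freeze-dried replicate 1 (exact binomial 95% interval 0.639 to 0.672) and 0.393% of replicate 2 (interval 0.360 to 0.428). In freeze-dried replicates 1, 2 and 3 it took 0.3995% (interval 0.392 to 0.407), 0.447% (interval 0.439 to 0.455) and 0.304% (interval 0.280 to 0.330). These intervals take in only the counting error of reads. Where several reads are copies of one molecule the intervals are too narrow, and any duplicate removal is not given in sources used here. The binomial intervals of not freeze-dried replicates 1 and 2 do not overlap. The mean shares were 0.524% ± 0.185 (SD, n = 2) and 0.383% ± 0.073 (SD, n = 3). The exact two-sided permutation test gave p = 0.60, but with 2 libraries against 3 it cannot go below 0.2, so it could not have shown a difference.

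miR-31-3p was not detected. It had 0 of 29778 miR-31 counts over the 5 libraries pooled, which allows a share of the 3p strand of up to 0.0101% (3 counts of the total, counting error only). By library the limit was 0.0502% and 0.58% before drying (replicates 1 and 2), and 0.0258%, 0.0271% and 0.513% in freeze-dried replicates 1, 2 and 3. The 2 shallow libraries thus set limits more than 10 times looser than the deep ones. With 0 counts in both groups, no difference of the strand between them could be seen at this depth, and no fold is given.

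Among hairpins whose strands could be matched by name, most of those at least as abundant as miR-31 had some counts of the less abundant strand. Left out are miRNAs whose other strand is listed with a locus number, such as let-7c-5p and miR-125b-5p. The table has both a 5p and a 3p row under the same name for 769 hairpins, of which 287 had a count. miR-31 was number 32 of these by pooled counts of both strands. Among the 32 hairpins down to and including miR-31, the less abundant strand had counts in all 5 libraries for 17, in some libraries for 12 and in none for 3. The hairpins without any were miR-100, miR-99a and miR-31. In each of these the 3p strand was the one at 0, and in 16 of the 32 hairpins the 5p strand was the more abundant one. The median share of the less abundant strand over the other hairpins of this group was 0.707%, above the limit of miR-31. Beside the hairpins at 0, those under the limit of miR-31 were miR-30d, with 6 counts of its 3p strand, and let-7i, with 3. miR-31 was thus among 5 of 32 hairpins with less than 0.0101% of the less abundant strand. Of the 22 other hairpins within 2-fold of miR-31 in pooled counts, 5 were also at 0, namely miR-100, miR-99a, miR-182, miR-224 and miR-652, and the median share was 0.68%. How reads with several matches were treated is not stated in the labels used here, and its part in counts of 0 was not tested.

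**Figure D2:**
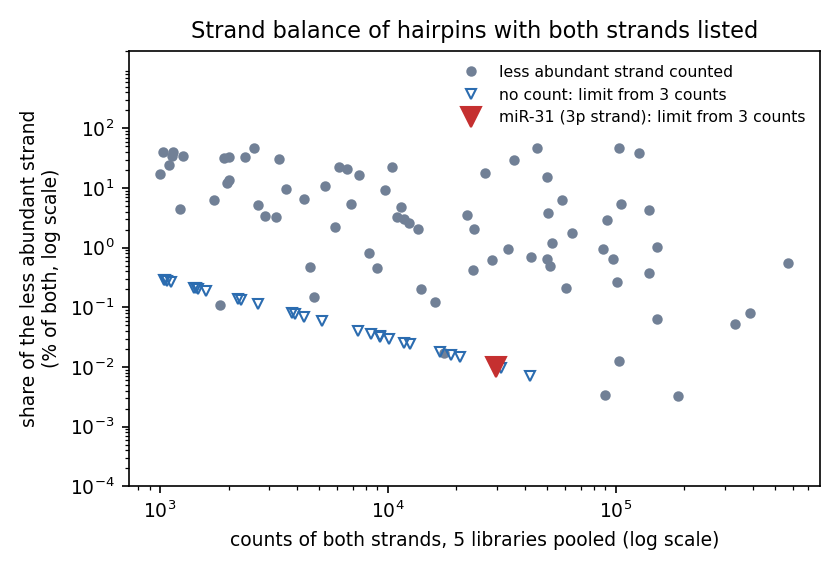
Share of the less abundant strand in percent of both strands (y axis, log scale) against the pooled counts of both strands (x axis, log scale). Shown are the 103 hairpins with at least 1000 counts and strands matched by name. Grey points had counts of that strand, and triangles had none and stand at the limit that 3 counts allow, which falls along a straight line by construction. The red triangle is miR-31 at 0.0101%.

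miR-31-5p varied no more between libraries than most miRNAs of its level. The highest of its 5 CPM values was 1.76 times the lowest. For the 37 other tested miRNAs with a mean within 2-fold of its own, this ratio ran from 1.31 to 149, with a median of 1.87, and 16 of them had a smaller one. Its SE of 0.31 on the log2 scale compares with a median of 0.34 for these miRNAs, 11 of which had a smaller SE.

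By mean level over the 5 libraries miR-31-5p, at 4339 CPM, was number 43 of the 327 tested miRNAs. Just above it stood miR-23b-3p at 4483 CPM and miR-146a-5p, a brake on inflammatory signalling, at 4464 CPM. Just below it stood miR-16-5p, which represses cell cycle genes, at 4151 CPM and miR-151-3p at 4006 CPM. These means differ by less than the spread of miR-31-5p between its own libraries, so the order among these neighbours is not resolved. The same mean can hide different data. miR-146a-5p had 402 and 11713 CPM before drying and 139, 78.9 and 9987 CPM after it, so it was high in both shallow libraries and low in the deep ones. Its highest value was 149 times its lowest, and its SE was 2.87. miR-23b-3p, with a highest value 1.70 times its lowest, had a log2 fold change of 0.23 (SE 0.32). miR-16-5p and miR-151-3p had log2 fold changes of -0.58 (SE 0.29 and 0.31) and groups without overlap, and neither was called (edgeR adjusted p = 0.98 for each).

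**Figure D3:**
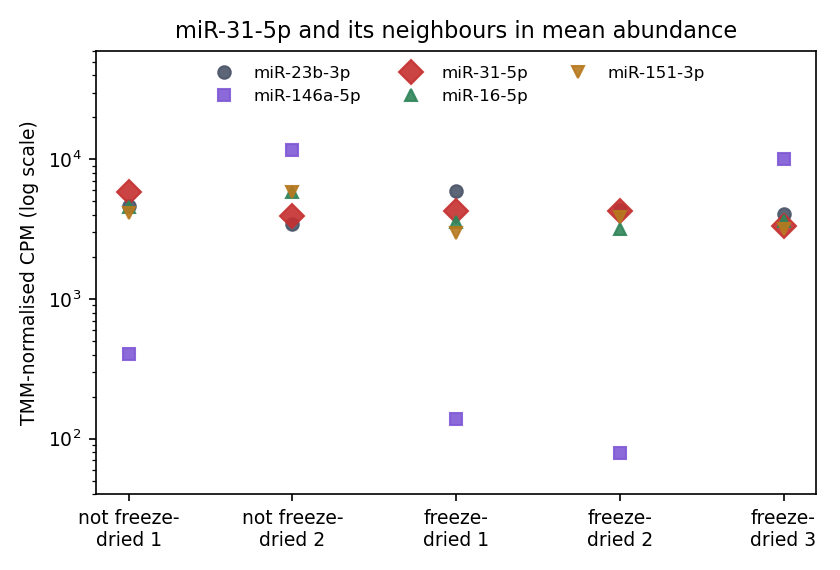
Levels (y axis, TMM-normalised CPM, log scale) of miR-31-5p, marked by red diamonds, and of the 2 miRNAs just above and the 2 just below it in mean abundance, in each library (x axis). miR-31-5p stays between 3331 and 5867 CPM, whereas miR-146a-5p runs from 78.9 to 11713 CPM.

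The miRNAs whose pattern over the 5 libraries was most like that of miR-31-5p were found by Pearson's r of log2 CPM, a description over 5 points that share library and depth. They were miR-148b-3p (r = 0.94), miR-125b-1-3p (r = 0.94), miR-100-5p (r = 0.93), miR-22-3p (r = 0.88) and miR-8112 (r = 0.88). Of 326 other tested miRNAs 3 had an r of at least 0.9, and the median r was -0.05. Each of the 5 was highest in not freeze-dried replicate 1 and lowest in freeze-dried replicate 3, as miR-31-5p was. The size of the swing differed. miR-125b-1-3p went from 3550 CPM in the highest library to 2710 in the lowest. miR-100-5p, an abundant miRNA of mesenchymal cells, went from 9496 to 2107 CPM, and miR-22-3p from 7972 to 3046 CPM. miR-148b-3p and miR-8112 were scarcer, with means of 222 and 55.7 CPM, and miR-8112 had 1 count in freeze-dried replicate 3.

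The roles for which miR-31-5p is known were followed in lists of other miRNAs, set by name with earlier results of these data known. The senescence-linked list had 20 miRNAs, of which 17 had a count and 16 were tested. In these, 0 were called higher and 0 lower, beside 0% of all tested miRNAs in either direction. The fold change was above 1 for 5 and below 1 for 11, with a median log2 fold change of -0.33, beside 167 above, 160 below and a median of 0.02 for all tested miRNAs. Groups did not overlap for 4 of the 16, or 25%, beside 17.4% of all. Its most abundant members were miR-21a-5p, a miRNA of activated fibroblasts, with a log2 fold change of -0.28 (SE 0.33), miR-30a-5p at 0.09 (SE 0.31) and miR-24-3p at -0.50 (SE 0.26). Of the tested members 6 had a higher mean level than miR-31-5p. miR-34a-5p, the p53-induced miRNA often used as a sign of senescence, had 108 and 10 counts before drying and 233, 124 and 48 after it, a mean level of 118 CPM against 4339 for miR-31-5p. It was singled out after its values were seen.

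The osteogenic-restraint list, of miRNAs known to repress regulators of bone formation such as Runx2 and Sp7, had 22 members, of which 17 had a count and 14 were tested. Again 0 were called higher and 0 lower. The fold change was above 1 for 9 and below 1 for 5, with a median log2 fold change of 0.14, beside 167 above, 160 below and a median of 0.02 for all tested miRNAs. Groups did not overlap for 4 of the 14, or 28.6%, beside 17.4% of all. Its most abundant members were miR-143-3p at -0.66 (SE 0.26), miR-125b-5p at 0.11 (SE 0.28) and miR-23a-3p, which represses Runx2, at 0.18 (SE 0.31). miR-143-3p had an unadjusted p of 0.03 and an adjusted p = 0.98 in edgeR. Of the tested members 8 had a higher mean level than miR-31-5p, so miR-31-5p was neither the most nor the least abundant of the osteogenic restraints in these vesicles. miR-137-3p, miR-217-5p, miR-338-3p, miR-138-5p and miR-34b-5p had 0 counts in every library. miR-24-3p and miR-217-5p are in both lists.

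**Figure D4:**
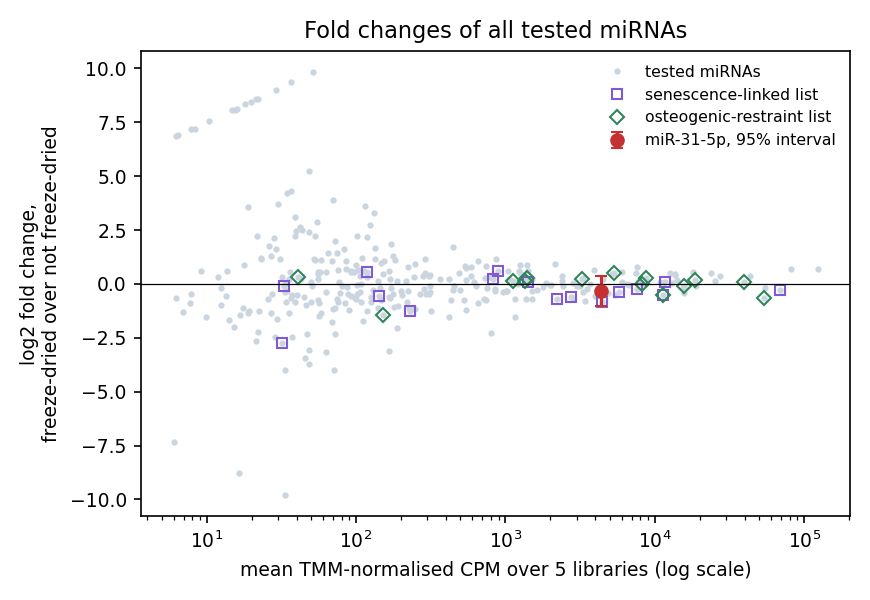
Log2 fold change of freeze-dried over not freeze-dried vesicles (y axis) against mean level (x axis, TMM-normalised CPM, log scale) for the 327 tested miRNAs. miR-31-5p, in red with its 95% interval, lies at -0.31 with an interval that includes 0, among members of the senescence-linked list (squares) and the osteogenic-restraint list (diamonds).

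miR-31 is also abundant in skin and other epithelia, so markers of cell types are given beside its level. All 10 mesenchymal miRNAs listed had counts, and together they took 22.1% to 22.8% of the counts in not freeze-dried and 15.6% to 18.1% in freeze-dried libraries. Of 7 epithelial miRNAs 4 had a count and 1 was tested. The list took 0.0707% to 0.0736% of the counts in not freeze-dried and 0.0203% to 0.0421% in freeze-dried libraries. This was below the share of miR-31 in each library. The list leaves out the miR-183 cluster, which is also grouped with epithelial miRNAs. Of that cluster miR-182-5p had a mean of 3050 CPM, miR-183-5p 2766 CPM and miR-96-5p 6.01 CPM. Of the list, miR-200c-3p, miR-141-3p and miR-429-3p had 0 counts in every library. The members miR-200a-3p and miR-200b-3p had 0 before drying. After it, miR-200a-3p had 0, 241 and 2 counts and miR-200b-3p 93, 0 and 2. The list's member with most counts, miR-203-3p, had 671 and 93 counts before drying and 1109, 303 and 35 after it. In CPM these were 659 and 713 before drying and 404, 118 and 199 after it, without overlap. The log2 fold change was -1.51 (SE 0.76), and miR-203-3p was not called (edgeR adjusted p = 0.98). miR-205-5p had 24 counts, all in freeze-dried replicate 1. Of 4 leukocyte miRNAs 2 had a count, and both strands of miR-142a were at 0. Those with counts were miR-150-5p, with 157 and 15 before drying and 106, 0 and 1 after it, and miR-223-3p, with 97 and 0 before and 40, 0 and 16 after. The groups of miR-150-5p did not overlap in CPM, and neither miRNA was called. The list took 0.0114% to 0.0278% and 0% to 0.00883% of the counts. The red cell list took 0.0615% to 0.0867% and 0.0721% to 0.1195%. The shares of the mesenchymal, epithelial and leukocyte lists thus did not overlap between the groups, while those of the red cell list and of miR-122-5p did. The senescence-linked list (13.9% to 14.0% against 8.83% to 11.3% in freeze-dried libraries) did not overlap either. Nor did the osteogenic-restraint list (18.0% to 20.2% against 12.6% to 17.8%). Both share members with the mesenchymal list, so the separation was not particular to lists of cell types. Such sums are weighted to their most abundant members. For CPM of single miRNAs, 17.4% of all tested had groups without overlap, which is no background for summed shares. The liver miRNA miR-122-5p had between 12 and 478 counts. The part of these other sources in the level of miR-31-5p was not tested.

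Over 15 other ways of processing the counts, miR-31-5p was called in 0, and its log2 fold change ran from -0.61 to 0.063. It was below 0 in 14 of them. With library totals only, a scaling that moved the median of all tested miRNAs by -0.11, it was -0.45 (SE 0.35).

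**Figure D5:**
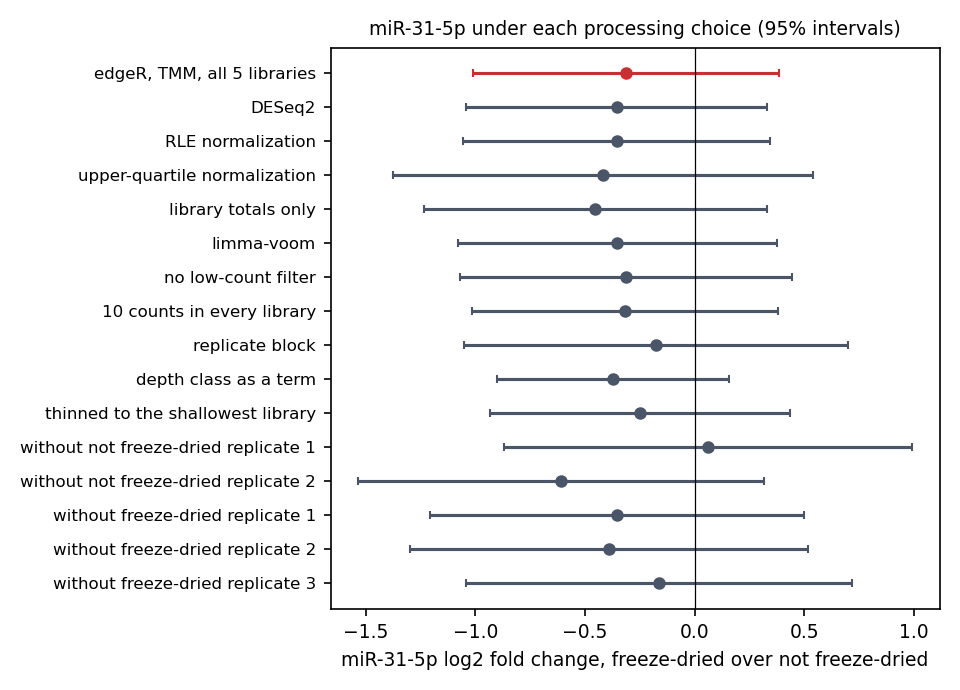
Log2 fold change of miR-31-5p with its 95% interval (x axis) under each processing choice (y axis), the reported fit in red. Every interval shown includes 0, and the value is above 0 only without not freeze-dried replicate 1.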

How the data were processed

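The authors deposited raw read counts per mature miRNA for 5 libraries. Per the submitters' processing notes, the tools were Bowtie 1.1.2, featureCounts 1.5.0-p1, cutadapt 2.3, bcl2fastq 2.20 and FastQC, and the build was GRCm38. Their roles, the miRNA annotation, the strand setting and any duplicate removal are not given in sources used here. Libraries were grouped by their titles. Differences were tested on the whole table with edgeR 4.0.16 under R 4.3.3, using TMM factors, filterByExpr and the robust quasi-likelihood test, with Benjamini-Hochberg adjustment over 327 miRNAs and a threshold of 0.05. SEs are the log2 fold change divided by the square root of F. Log2 CPM used a prior count of 2. Alternatives used DESeq2 1.42.0, limma 3.58.1 and other normalizations, filters and libraries. The functions were tested on simulated counts with 200 of 517 miRNAs changed. miR-31 and the lists were chosen with earlier results of these data known. Named miRNAs were miR-31 itself, the 2 just above and 2 just below in mean CPM, the 5 with the highest r, miR-491, and the 3 most abundant and all called members of each list. Other names were chosen after their values were seen.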

Additional observations from a re-analysis of the deposited data

How the results depend on the processing

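The log2 fold change of miR-31-5p, -0.31, changed sign only without not freeze-dried replicate 1 (0.063). Leaving out 1 library at a time it ranged from -0.61 to 0.063, and 0 of 15 alternatives called it, with adjusted p-values from 0.83 to 0.999. Leaving out a not freeze-dried library leaves 1 in its group, and that library is taken to vary like the freeze-dried ones. With the replicate block it was -0.18 (SE 0.45), and 4 miRNAs were called lower, against 0 otherwise. Freeze-dried replicate 3 is alone in its block, so that fit compares only replicates 1 and 2 of each group. Little is then left to estimate the spread, and the 4 calls are fragile. The labels do not say that the numbers pair the samples, and the 2 pairs' deviations correlate at 0.17 and -0.12. No alternative called a miRNA higher. The difference in miR-31 share, -0.14 percentage points, ranged from -0.27 to -0.0096 without 1 library. No alternative tested miR-31-3p, which has no count. In the 2 shallow libraries 517 and 585 counts limit the precision.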

Other observations

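Strands at 0 were not rare among abundant hairpins. Of the 103 hairpins with at least 1000 pooled counts and a row for each strand under the same name, 28 had 0 counts of the less abundant strand. Next after miR-31 by abundance these were miR-182, miR-224, miR-652, miR-186 and miR-26b, chosen after their values were seen. For miR-652 the 5p strand was the one at 0, with 16855 counts of the 3p strand, and for the others it was the 3p strand. Other passenger strands came in 1 library alone: miR-22-5p had 301 counts in freeze-dried replicate 1 and 0 in the other 4 libraries.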
